A study of Mus musculus and Mus musculus musculus x Mus musculus castaneus with 52 samples.

Results

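DNA methylation in mouse cells is written, copied and kept in place by a small group of proteins, and the messenger RNA of 7 of them was followed here in pluripotent stem cells that differ in X chromosome number. The 7 genes, Dnmt1, Dnmt3a, Dnmt3b, Dnmt3l, Uhrf1, Uhrf2 and Hells, were chosen by name, and all 7 were found among the 16687 genes of an RNA sequencing table with 24 libraries. The iPSCs were female lines LV20, LV21 and LV22, labelled XX at passage 7 (P7) and XO at passage 13 (P13), and male lines LV4, LV8 and LV16, XY at both passages. The iPSCs and the passage 5 ESCs were expanded on male wild-type feeder cells with serum and LIF. Those ESCs were the XX lines CM1 and CM2, set against the XY lines CM3 and CM7, all from musculus by castaneus crosses. A LIF withdrawal experiment held 2 independent heterozygous Dusp9+/- XX clones, the wild-type XX line F121 and the wild-type XY line V6.5. Each was sampled at 24 h without LIF and at 0 h. That experiment is described as in serum without feeder cells, but fibroblast and feeder markers were high at 0 h in F121 and V6.5, as given below. Every line but the clones was labelled WT, F121 and the clones are of the same hybrid background as the CM lines, and V6.5 and the LV lines are Mus musculus. The 24 h and 0 h groups of F121 and V6.5 hold 1 library each, so in that experiment sex, strain and line cannot be told apart.

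Dnmt1 copies methylation onto the new strand behind the replication fork, and Uhrf1 brings it there by binding hemimethylated DNA and ubiquitinating histone H3. Uhrf2 is the paralogue of Uhrf1, which binds related DNA but does not stand in for it in mouse ESCs, and Hells is a chromatin remodeller that opens nucleosomal DNA to the methyltransferases. Dnmt3a and Dnmt3b place new methyl groups, and Dnmt3l is a catalytically inactive partner that stimulates both. Mouse ESCs with a pair of active X chromosomes are known for low global methylation, and naive cells gain methylation when they leave the LIF-dependent state.

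In GRCm38.p6 the genes lie on chromosome 9 (Dnmt1), chromosome 12 (Dnmt3a), chromosome 2 (Dnmt3b), chromosome 10 (Dnmt3l), chromosome 17 (Uhrf1) and chromosome 19 (Uhrf2 and Hells), so none is X-linked. Their promoters were read from RefSeq windows of 300 bases, from 250 before to 50 after each listed start, and 14 windows were found for 7 of 7 genes. An E2F-type motif was searched on both strands as TTTCCCGC, TTTGGCGC, TTTCGCGC or TTTGCCGC, the letters bound by E2F factors at genes of the G1 to S transition. It was present in 744 of 32851 windows of the same length (2.26%). The windows below are those of Dnmt1, Uhrf1 and Hells that hold the motif, followed by the Dnmt3b window and the most downstream Dnmt3a window, which do not, because Dnmt3a and Dnmt3b carry the largest differences given here. Capitals mark the motif.
Dnmt1, chr9:20952574-20952873, minus strand: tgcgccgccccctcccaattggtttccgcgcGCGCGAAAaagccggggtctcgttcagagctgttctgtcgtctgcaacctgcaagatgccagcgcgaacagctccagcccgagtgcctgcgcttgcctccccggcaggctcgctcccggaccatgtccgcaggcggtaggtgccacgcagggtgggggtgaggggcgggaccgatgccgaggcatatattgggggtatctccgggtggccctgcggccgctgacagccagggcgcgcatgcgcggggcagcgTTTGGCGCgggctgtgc
Uhrf1, chr17:56304063-56304362, plus strand: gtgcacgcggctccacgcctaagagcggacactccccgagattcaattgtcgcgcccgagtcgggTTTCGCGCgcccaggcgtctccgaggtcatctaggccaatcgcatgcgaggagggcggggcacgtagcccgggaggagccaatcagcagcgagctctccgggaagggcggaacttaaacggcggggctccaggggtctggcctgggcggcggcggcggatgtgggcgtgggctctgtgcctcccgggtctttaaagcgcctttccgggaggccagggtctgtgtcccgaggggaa
Hells, chr19:38930740-38931039, plus strand: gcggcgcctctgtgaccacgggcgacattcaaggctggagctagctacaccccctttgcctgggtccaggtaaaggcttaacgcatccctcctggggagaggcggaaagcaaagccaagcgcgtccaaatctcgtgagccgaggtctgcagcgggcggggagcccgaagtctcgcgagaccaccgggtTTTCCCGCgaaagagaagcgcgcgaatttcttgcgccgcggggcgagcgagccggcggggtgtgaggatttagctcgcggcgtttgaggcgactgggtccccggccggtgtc
Dnmt3b, chr2:153649199-153649498, plus strand: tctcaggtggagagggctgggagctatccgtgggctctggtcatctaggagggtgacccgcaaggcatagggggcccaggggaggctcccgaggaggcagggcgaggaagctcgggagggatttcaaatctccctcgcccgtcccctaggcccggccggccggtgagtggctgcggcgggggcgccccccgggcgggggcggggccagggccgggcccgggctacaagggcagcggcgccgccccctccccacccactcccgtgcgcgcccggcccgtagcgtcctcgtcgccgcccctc
Dnmt3a, chr12:3891494-3891793, plus strand: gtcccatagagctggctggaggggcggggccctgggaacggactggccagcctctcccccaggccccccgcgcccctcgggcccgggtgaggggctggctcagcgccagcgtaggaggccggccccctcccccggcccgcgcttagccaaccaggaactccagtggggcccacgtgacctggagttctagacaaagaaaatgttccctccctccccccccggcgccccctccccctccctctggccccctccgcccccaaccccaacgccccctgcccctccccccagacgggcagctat

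The Dnmt1 window held 2 matches, the Uhrf1 and Hells windows 1 each, and no match overlapped a GC box (GGGCGG) or a CCAAT match. No window of Dnmt3a, Dnmt3b, Dnmt3l or Uhrf2 held these letters, which says nothing of E2F factors elsewhere at those genes. The printed windows held 33 CpG dinucleotides for Dnmt1, 33 for Uhrf1, 34 for Hells, 30 for Dnmt3b and 18 for Dnmt3a, against a median of 7 over all windows. Of the windows not printed, the other Dnmt3a windows held 46 and 47, the other Dnmt1 windows 2 and 12, the other Uhrf1 window 12 and the Uhrf2 window 28. The 3 Dnmt3l windows held 6, 4 and 3. Counts per gene do not show which start was used.

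The libraries held 8309171 to 14245900 reads, and each of the 7 genes was deep in all of them, with at least 591 reads in a library. Values are CPM, reads scaled to a common library size, not scaled to gene length, so levels are compared between libraries and not between genes. X-linked output was taken as the median log2 level over 526 genes on the X less the median over 12865 autosomal genes. Of the libraries labelled XX at P7, LV20 had an output of 0.36 and LV22 of 0.46, but LV21 had -0.27. Of those labelled XO at P13, LV20 had -0.66, LV21 had -0.75 and LV22, again apart, had -0.26, while the XY iPSC libraries lay between -0.75 and -0.54. Comparisons of female iPSCs were therefore also run with these 2 libraries left out. The clone numbers are those of the labels at each time. Across 14242 genes the difference between clone 1 and clone 2 at 24 h was opposite to that at 0 h (Pearson r = -0.37), and 59 of 68 genes more than 2-fold apart at both times had opposite signs, so no change per clone is given. Pluripotency markers (9 genes) summed to 3142 to 4999 CPM over the 24 libraries, with none at 0 in any group. Fibroblast and feeder markers (14 genes) were also present, at 141 to 1873 CPM, and their sums stand beside the results they move with. In such bulk samples, fewer cells of a type and less RNA per cell cannot be told apart.

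Over the 24 libraries the maintenance genes were narrow in range and the de novo genes wide. Dnmt1 ran from 456.5 CPM in LV21 at P7 to 724.5 CPM in CM3, a 1.59-fold range, and only 4.87% of 14242 genes had a smaller standard deviation on the log2 scale. Uhrf1 ran from 289 to 589 CPM (2.04-fold), Uhrf2 from 52.7 to 114 CPM (2.17-fold) and Hells from 474 to 1180 CPM (2.49-fold). Dnmt3a spanned 113 to 1262 CPM (11.1-fold), Dnmt3b 185 to 1301 CPM (7.05-fold) and Dnmt3l 108 to 1139 CPM (10.6-fold). The highest groups for Dnmt3a, Dnmt3b, Dnmt3l and Hells were all at 24 h without LIF, and the lowest for Dnmt1, Dnmt3a, Dnmt3l, Uhrf1 and Hells was XX iPSC at P7.

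**Figure D1:**
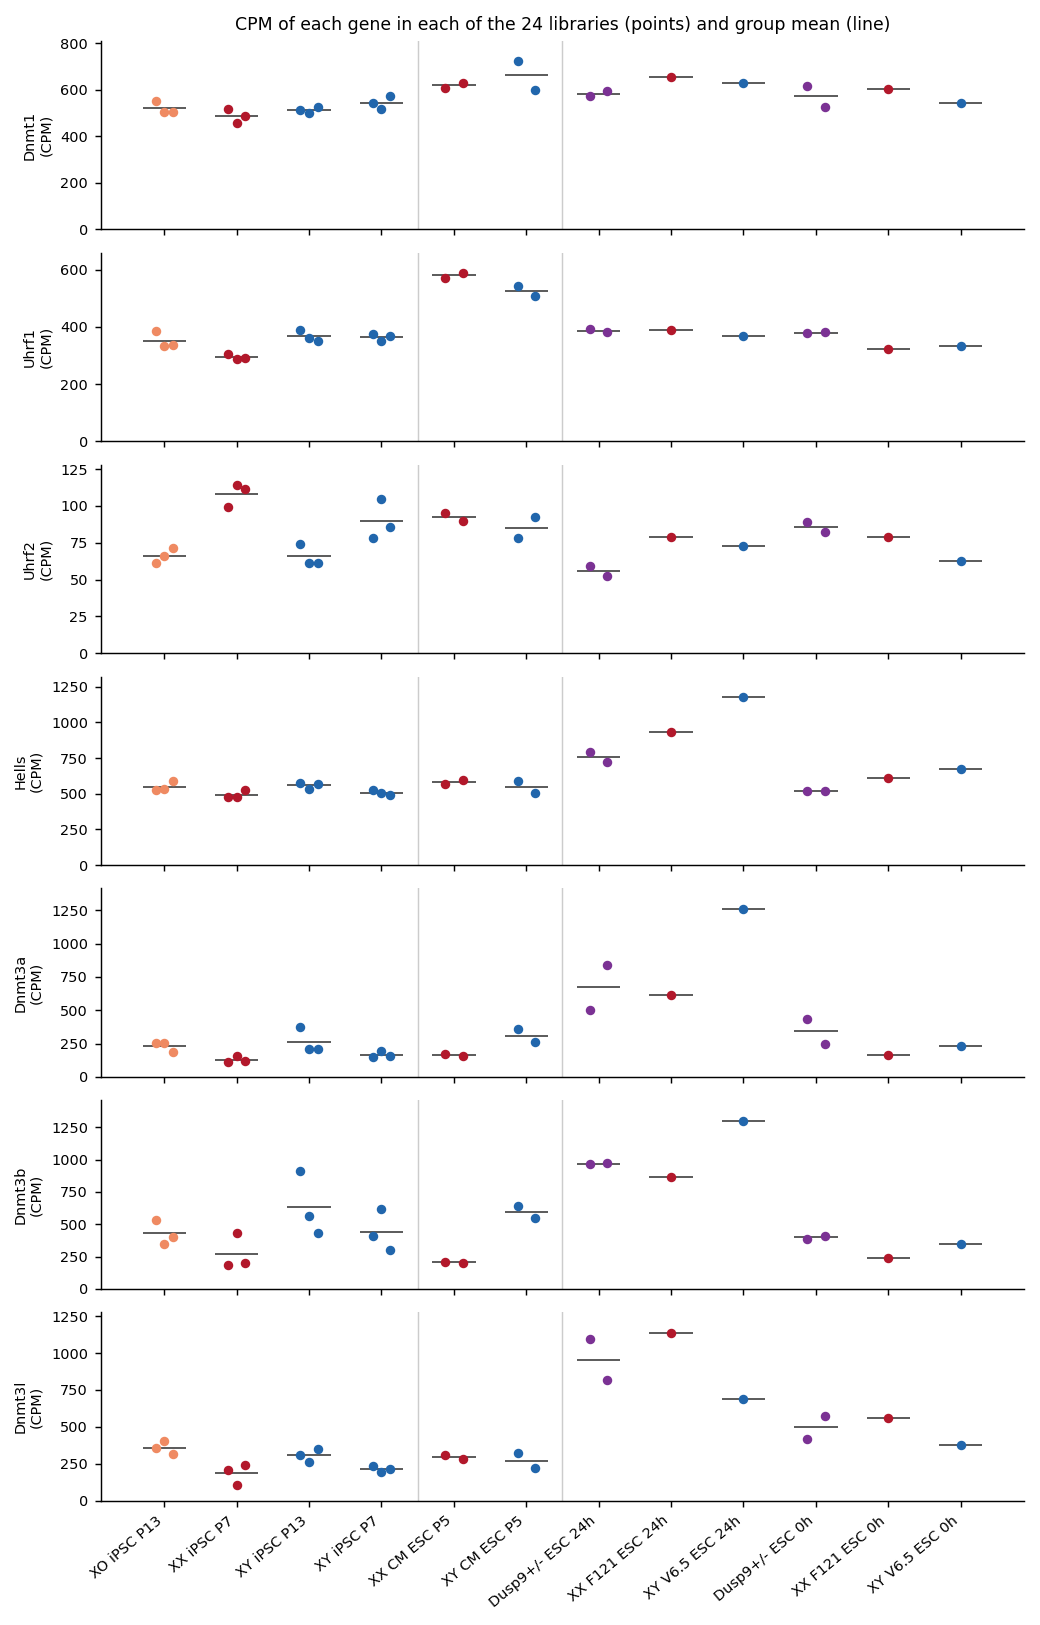
CPM (vertical axis, from 0) of each of the 7 genes in every library; points are libraries, lines are group means, and vertical rules separate iPSCs, CM ESCs and the withdrawal experiment. Dnmt1 stays between 456.5 and 724.5 CPM, whereas Dnmt3a reaches 1262 CPM and Dnmt3b 1301 CPM at 24 h without LIF.

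Within that order most neighbouring groups did not differ beyond their spread. Uhrf1 was highest in CM ESCs, at 580 ± 13.0 CPM in XX and 526 ± 25.3 CPM in XY lines (SD, n = 2 each), above all other groups without overlap. XX iPSCs at P7 were lowest for Uhrf1 (295 ± 8.13 CPM, SD, n = 3), with no overlap with any other group. They had the highest mean for Uhrf2 (108 ± 7.93 CPM, SD, n = 3), but their range of 99.5 to 114 CPM overlapped that of XY iPSCs at P7, where LV4 had 105 CPM. For Dnmt1 the ranges of the 6 lowest groups overlapped from each group to the next.

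The first comparison set XX against XY iPSCs at P7, where the lines differ in X number at equal passage. Uhrf1 was lower in XX lines and was the only one of the 7 genes to pass the test. It had 305, 289 and 292 CPM in XX lines LV20, LV21 and LV22, against 351, 368 and 376 CPM in XY lines LV4, LV8 and LV16. The groups did not overlap, and LV21 was as low as the other XX lines. The difference was -0.30 ± 0.08 on the log2 scale (SE), 1.235-fold, with adjusted p = 0.0387 by limma over 13978 genes. In this comparison 4.78% of all genes tested were called, 3.05% higher and 1.72% lower. With LV21 (P7) and LV22 (P13) left out, Uhrf1 still passed (-0.29, adjusted p = 0.0425). The call was narrow: adjusted p was 0.0578 with the spread taken from the 6 P7 libraries alone, and 0.0909 without LV20, 0.159 without LV22, 0.0703 without LV4, 0.127 without LV8 and 0.122 without LV16 at P7, while the difference stayed between -0.33 and -0.28. It was also lost when LV4 (0.0532) or LV8 (0.0505) at P13 was left out, which changes the shared spread only.

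Dnmt3b, the de novo enzyme most tied to early development, had 185, 434 and 198 CPM in XX lines LV20, LV21 and LV22, against 614.5, 299 and 406 CPM in XY lines LV4, LV8 and LV16. LV20 and LV22 lay below every XY line and LV21 lay inside the XY range. The difference was -0.74 ± 0.33 (log2, SE) with adjusted p = 0.209 by limma. Without LV21 it was -1.14 with adjusted p = 0.0167, and 0.0211 with LV22 at P13 also left out. Dnmt3a had 113, 160 and 119 CPM in LV20, LV21 and LV22, against 192, 154 and 148 CPM in LV4, LV8 and LV16, and again only LV21 reached the XY range. Its difference was -0.34 ± 0.20 (adjusted p = 0.362, limma). It ran from -0.49 to -0.22 over single libraries left out and passed in none of the 19 alternatives run. Dnmt3l had 206, 108 and 244.5 CPM in these XX lines, against 198, 213 and 233 CPM in the XY lines, and LV21 stood apart on the low side. The Dnmt3l difference of -0.28 ± 0.22 (adjusted p = 0.487) became 0.07 without LV21 (adjusted p = 0.797, limma).

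The other 3 genes did not pass, here or in any of the alternatives run. Uhrf2 had 99.5, 114 and 111 CPM in XX lines LV20, LV21 and LV22, against 105, 85.9 and 78.5 CPM in XY lines LV4, LV8 and LV16, a difference of 0.28 ± 0.12 (adjusted p = 0.206). Dnmt1 differed by -0.16 ± 0.07 (adjusted p = 0.214) and Hells by -0.04 ± 0.07 (adjusted p = 0.808), both by limma. Among 19 partners and regulators of methylation upkeep, 2 were higher and none lower: Zfp57, which protects imprints, by 0.55 ± 0.12 (adjusted p = 0.0268), and Prdm14, which represses Dnmt3b in mouse ESCs, by 1.24 ± 0.33 (adjusted p = 0.0440). Of 20 S-phase genes, Rrm2 alone was called (0.34 ± 0.09, adjusted p = 0.0388), and the list's median difference was -0.03, against 0.00 over all genes tested.

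In ESCs the same question was put to 3 XX and 3 XY wild-type lines, with the experiment as a covariate, and the 2 de novo enzymes were lower in XX lines. Dnmt3b had 208 and 201 CPM in CM1 and CM2, against 641 and 545.5 CPM in CM3 and CM7. In the withdrawal experiment it had 242 CPM in F121, against 347 CPM in V6.5, both at 0 h. All 3 XX lines were below all 3 XY lines. The difference was -1.19 ± 0.18 (log2, SE) with adjusted p = 0.00771 by limma over 14193 genes. Dnmt3a had 174 and 161 CPM in CM1 and CM2, against 356 and 259.5 CPM in CM3 and CM7, and 165.5 CPM in F121 against 229 CPM in V6.5. Its difference was -0.73 ± 0.13 (adjusted p = 0.0156, limma), again with no overlap. These were 2 of 7 genes, in a comparison where 7.19% of all genes tested were called and 2.32% were called lower. Of 9 pluripotency markers, 3 were higher in XX lines and 0 lower, with Nanog at 1.00 ± 0.08 (adjusted p = 0.000695, limma). Of 7 markers of cells leaving the naive state, Dnmt3a and Dnmt3b were the only 2 called. The part of these lists was not tested.

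Within the CM lines alone the difference was -1.53 for Dnmt3b (adjusted p = 8.48e-06) and -0.86 for Dnmt3a (adjusted p = 0.00205, limma), and between F121 and V6.5 it was -0.52 for Dnmt3b and -0.47 for Dnmt3a, with 1 library each. Both calls were lost without CM1, at adjusted p = 0.0550 for Dnmt3b and 0.0854 for Dnmt3a, and without CM2, at 0.0610 for Dnmt3b and 0.106 for Dnmt3a. Uhrf1, which was called in iPSCs, had 571 and 589 CPM in CM1 and CM2, against 544 and 508 CPM in CM3 and CM7, and 322 CPM in F121 against 332.5 CPM in V6.5. It differed by 0.08 ± 0.07 (adjusted p = 0.557), Uhrf2 by 0.19 ± 0.11 (0.318), Dnmt3l by 0.29 ± 0.15 (0.283), Hells by 0.01 ± 0.09 (0.950) and Dnmt1 by -0.01 ± 0.09 (0.973), all adjusted p by limma. Of the alternatives run, Dnmt3l passed only without CM3 (0.48, adjusted p = 0.0359). Prdm14 was higher here too, by 1.34 ± 0.14 (adjusted p = 0.00196), and Cdca7l, a paralogue of the Hells partner Cdca7, was lower, at -0.75 ± 0.12 (adjusted p = 0.0103), the only 2 of 19 partners called. In the methyl donor list, 2 of 13 genes were called, the folate enzyme Mthfd1 at -0.64 ± 0.08 (adjusted p = 0.00318) and the glycine cleavage enzyme Gldc at -0.58 ± 0.09 (adjusted p = 0.00710). Gldc was also the only donor gene called in iPSCs (-0.50 ± 0.13, adjusted p = 0.0391).

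The XX minus XY difference in iPSCs at P7 was set against that in CM ESCs in a single fit. No member passed by limma or by voom (a limma fit to recovered reads), and 2 had an unadjusted p under 0.05. In this comparison 0.0213% of all genes tested were called, 0.00709% higher and 0.0142% lower. The gap was widest relative to its error for Uhrf1, at -0.45 ± 0.10 (unadjusted p = 0.000946, adjusted p = 0.169), followed by Dnmt3a at 0.52 ± 0.24 (adjusted p = 0.450). A difference in Uhrf1 between the 2 cell types was thus not shown. The iPSCs and CM ESCs also differ in strain and passage, so cell type cannot be told apart from these.

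**Figure D2:**
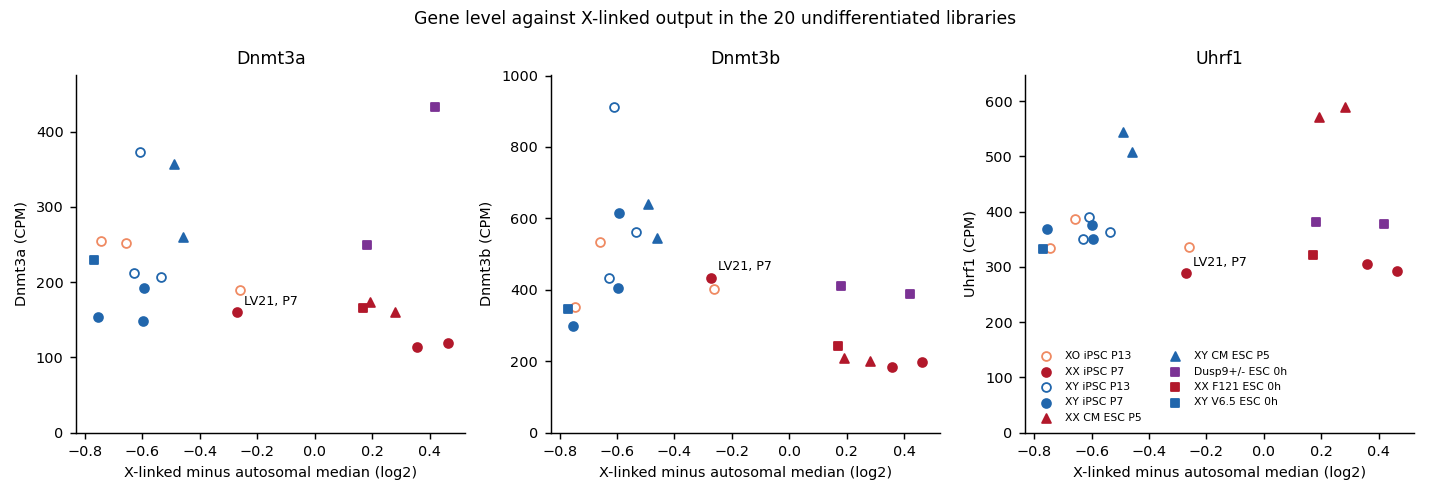
CPM of Dnmt3a, Dnmt3b and Uhrf1 (vertical axes, from 0) against X-linked output (horizontal axis, log2) in the 20 undifferentiated libraries; each point is a library, circles are iPSCs, triangles CM ESCs, squares the 0 h libraries, and open symbols P13. The 5 wild-type XX libraries with output above 0 have 185 to 242 CPM of Dnmt3b, and LV21 at P7, at -0.27, has 434 CPM.

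Across cell types, the 5 wild-type XX libraries with X-linked output above 0 (LV20 and LV22 at P7, CM1, CM2 and F121 at 0 h) had 185 to 242 CPM of Dnmt3b. The other wild-type undifferentiated libraries had 299 CPM or more. The Dusp9+/- clones, with outputs of 0.42 and 0.18, had 387.5 and 411 CPM. These libraries share lines and experiments, so the pattern is given as a description with no test.

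At P13 the female lines were labelled XO, and no difference from XY lines passed the test for any of the 7 genes. The comparison called 0.0286% of all genes tested, none of them higher (0.00%). No member passed by limma or voom or had an unadjusted p under 0.05, while 376 genes had one. Uhrf1 had 386, 334 and 336 CPM in XO lines LV20, LV21 and LV22, against 362, 350.5 and 390 CPM in XY lines LV4, LV8 and LV16, and the groups now overlapped. Its difference was -0.06 ± 0.08 (adjusted p = 0.9995, limma). Dnmt3b had 533, 350.3 and 402 CPM in the XO lines, against 562, 434 and 912 CPM in the XY lines, a difference of -0.52 ± 0.33 (adjusted p = 0.9995, limma) with an overlap of LV20 and LV8. That value lies within 1 SE of the Dnmt3b difference at P7. With LV21 (P7) and LV22 (P13) left out it was -0.49 (adjusted p = 0.978, limma), and again no member passed.

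From passage to passage the same 6 lines could be followed, and in the female lines Dnmt3a and Dnmt3l were higher and Uhrf2 lower at P13. These lines are labelled XO at P13 and XX at P7, so passage and X number cannot be told apart in them. The comparison called 9.00% of all genes tested, 4.32% higher and 4.68% lower. Uhrf2 had 61.0, 66.2 and 71.5 CPM at P13 in LV20, LV21 and LV22, against 99.5, 114 and 111 CPM at P7. It was lower in 3 of 3 lines, by -0.71 ± 0.12 (log2, SE; adjusted p = 0.00762, limma). Dnmt3l had 354, 406 and 320 CPM at P13, against 206, 108 and 244.5 CPM at P7, a difference of 1.03 ± 0.22 (adjusted p = 0.0157, limma), of which LV21 gave the most, with a change of 1.91. Dnmt3a had 252.5, 255 and 189 CPM at P13, against 113, 160 and 119 CPM at P7, a difference of 0.83 ± 0.20 (adjusted p = 0.0247, limma), with no overlap.

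Without LV20 at P13 only Uhrf2 kept its call among the 7 genes, with Dnmt3l at adjusted p = 0.0527 and Dnmt3a at 0.0944. Dnmt3a was also lost without LV20 (0.106) or LV22 (0.0825) at P7, without LV21 at P13 (0.0612), and with no filter on low values (0.0525). Dnmt3b had 533, 350.3 and 402 CPM at P13, against 185, 434 and 198 CPM at P7, so it was higher in LV20 and LV22 and lower in LV21. Its difference of 0.75 ± 0.33 (adjusted p = 0.164) was 1.14 without LV21 at P7 (adjusted p = 0.0162, limma) and 1.18 without LV22 at P13 as well (0.0307). With both left out, Dnmt3a (1.13, adjusted p = 0.00601), Dnmt3l (0.76, 0.00443) and Uhrf2 (-0.73, 0.00879) also passed. Uhrf1 had a higher value at P13 in 3 of 3 female lines, by 0.34, 0.21 and 0.20. Its difference of 0.25 ± 0.08 (adjusted p = 0.0562) passed with the line as a block (0.0440). It also passed without LV16 at P13 (0.0494), a male line whose absence changes the shared spread only. Dnmt1 at 0.10 ± 0.07 (adjusted p = 0.411) and Hells at 0.16 ± 0.07 (adjusted p = 0.192) did not pass.

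In the male lines, which kept their XY karyotype label, Uhrf2 was again lower at P13 and was the only member called. It had 61.3, 61.4 and 74.3 CPM at P13 in LV4, LV8 and LV16, against 105, 85.9 and 78.5 CPM at P7. The ranges did not overlap, but LV16 changed by only -0.08. The difference was -0.44 ± 0.12 (adjusted p = 0.0302, limma), in a comparison that called 13.0% of all genes tested, 7.23% higher and 5.82% lower. It did not pass without LV4 at P7 (adjusted p = 0.108) or P13 (0.126), nor without LV8 at P7 (0.0837) or P13 (0.108). Dnmt3a had 207, 212 and 373 CPM at P13, against 192, 154 and 148 CPM at P7, with changes of 0.11, 0.46 and 1.33. Its difference of 0.64 ± 0.20 had adjusted p = 0.0532, and 0.0442 with the line as a block and 0.0304 without LV21 at P7. Dnmt3l had a higher value at P13 in 3 of 3 male lines (0.51 ± 0.22, adjusted p = 0.136) and passed without LV21 at P7 (0.0102). LV21 is a female line, so leaving it out changes the shared spread only, here and for Dnmt3a. Dnmt3b at 0.53 ± 0.33, Hells at 0.14 ± 0.07, Dnmt1 at -0.08 ± 0.07 and Uhrf1 at 0.01 ± 0.08 did not pass.

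**Figure D3:**
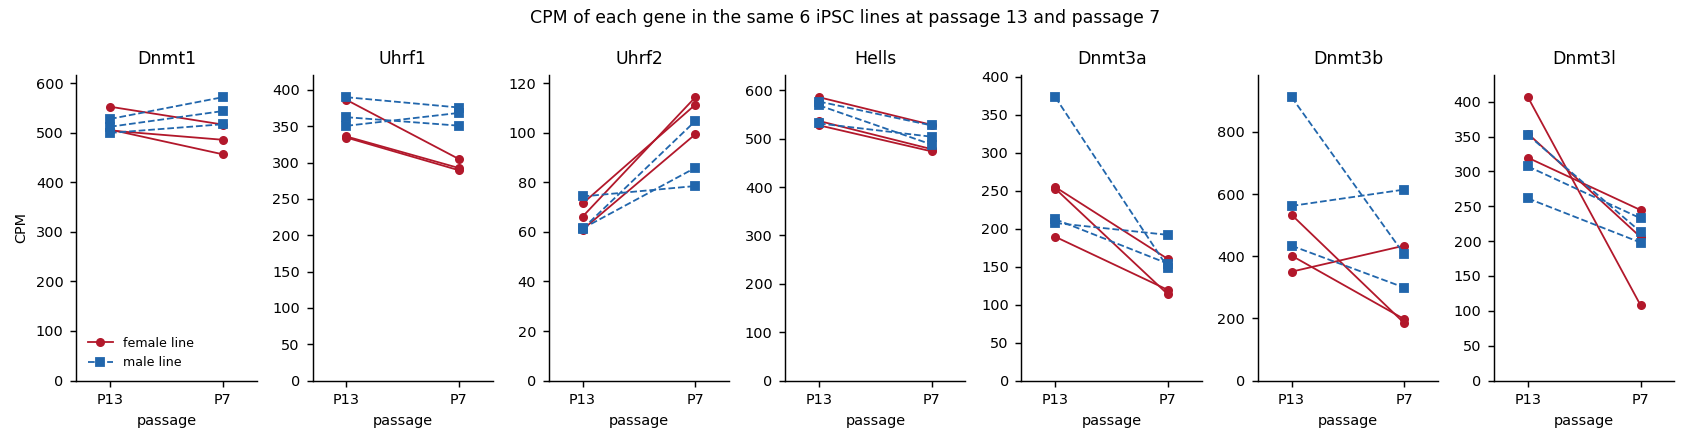
CPM (vertical axes, from 0) of each gene in the 6 iPSC lines at P13 (left of each panel) and P7 (right); each line joins 1 cell line, circles are female lines and squares male lines. Uhrf2 is lower at P13 in all 6 lines, Dnmt3l is higher in all 6, and the female Uhrf1 values are 334 to 386 CPM at P13 and 289 to 305 CPM at P7.

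The passage change in female minus that in male lines was tested as an interaction. It called 0 of 13978 genes by limma (0.00%) and 0 by voom, with 1242 genes at an unadjusted p under 0.05. Uhrf1 was the only member with an unadjusted p under 0.05, at 0.24 ± 0.11 (adjusted p = 0.548). Dnmt3a at 0.20 ± 0.29, Dnmt3l at 0.52 ± 0.31, Dnmt3b at 0.22 ± 0.47 and Uhrf2 at -0.27 ± 0.17 did not pass. Fibroblast and feeder markers moved with passage. Their sum was 687 to 1447 CPM in XO lines at P13, against 384 to 587 CPM in XX lines at P7, and 670 to 1873 CPM in XY lines at P13, against 376 to 409 CPM at P7. They were called higher for 7 of 14 genes in female and 10 of 14 in male lines. Primitive endoderm markers summed to 44.8 to 85.4 CPM in XO lines at P13, against 30.2 to 40.9 CPM in XX lines at P7, and to 70.7 to 115 CPM in XY lines at P13, against 30.3 to 42.2 CPM at P7. They were called higher for 1 of 6 genes in female lines (Dab2) and 2 of 6 in male lines (Dab2 and Pdgfra). The median log2 difference of the tested genes of this list was -0.17 in female and 0.89 in male lines. The part of either list in the passage differences was not tested.

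Pathway genes outside the 7 that were called with passage are counted by list. Over all genes tested, 9.00% were called in female and 13.0% in male lines. The lists are short, and no list was tested against these shares. Of 19 partners and regulators of methylation upkeep, 1 was higher and 1 lower in female lines, and 2 were higher in male lines. Of 8 writers and erasers of histone marks read by Dnmt3 enzymes, 1 was higher and 1 lower in female lines, and 1 higher and 2 lower in male lines. Of 13 methyl donor genes, 1 was higher and 1 lower in female lines, and 2 higher and 1 lower in male lines. Of 8 TET and base excision genes, 1 was higher and 2 lower in female lines, and 1 higher and 1 lower in male lines. The corepressor Trim28, which guides methylation upkeep at imprints and retroelements, was higher by 0.47 ± 0.08 in female (adjusted p = 0.00854) and 0.44 ± 0.08 in male lines (adjusted p = 0.00615, limma). Nsd1 was higher by 0.28 ± 0.08 (adjusted p = 0.0438) in female and 0.30 ± 0.08 (0.0265) in male lines, and Nsd2 lower, at -0.60 ± 0.10 (0.00687) and -0.80 ± 0.10 (0.00112). Both write the H3K36 dimethylation that Dnmt3a reads. Mat2a, which makes the methyl donor S-adenosylmethionine, was higher by 1.05 ± 0.18 (0.00687) in female and 1.42 ± 0.18 (0.00112) in male lines. In the same list Ahcyl1 was lower, at -0.43 ± 0.08 (0.0103) in female and -0.39 ± 0.08 (0.00884) in male lines. Gadd45b, of the TET and base excision list, was lower too, at -0.89 ± 0.26 (0.0466) in female and -1.36 ± 0.26 (0.00582) in male lines. Of 20 S-phase genes, 1 was higher and 1 lower in female lines and 2 were higher in male lines.

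At 24 h without LIF, 4 of the 7 genes were called, all higher than at 0 h: Dnmt3a, Dnmt3b, Dnmt3l and Hells. No library was kept in LIF for the 24 h, so time and LIF cannot be told apart. The comparison of 24 h with 0 h over 4 lines called 32.7% of all genes tested, 16.8% higher and 15.9% lower. Dnmt3b had 963 and 974.5 CPM in the clones, 863 CPM in F121 and 1301 CPM in V6.5 at 24 h, against 387.5 and 411 CPM in the clones, 242 CPM in F121 and 347 CPM in V6.5 at 0 h. Every 24 h library exceeded every 0 h library. The difference was 1.57 ± 0.12 (adjusted p = 0.000423, limma over 14335 genes). Dnmt3a had 501 and 842 CPM in the clones, 612 CPM in F121 and 1262 CPM in V6.5 at 24 h, against 433 and 249.5 CPM in the clones, 165.5 CPM in F121 and 229 CPM in V6.5 at 0 h. Its difference was of the same size, 1.58, with the wider error of 0.30 (adjusted p = 0.00735, limma). Between times Dnmt3a differed by 2.46 in V6.5 and by 1.89 in F121, with 1 library at each time.

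Dnmt3l had 1095 and 818 CPM in the clones, 1139 CPM in F121 and 687 CPM in V6.5 at 24 h, against 420 and 573 CPM in the clones, 563 CPM in F121 and 379 CPM in V6.5 at 0 h. It was higher by 0.94 ± 0.12 (adjusted p = 0.00169, limma). In contrast to the de novo enzymes, Dnmt3l was higher in F121 than in V6.5 at both times, by 0.73 at 24 h and 0.57 at 0 h, with 1 library each and no test. Hells, the remodeller, had 793 and 719 CPM in the clones, 935 CPM in F121 and 1180 CPM in V6.5 at 24 h, against 521.2 and 520.8 CPM in the clones, 613 CPM in F121 and 674 CPM in V6.5 at 0 h. It was higher by 0.62 ± 0.07 (adjusted p = 0.00103, limma). These 4 calls held in each of the alternatives run, with adjusted p up to 0.0313 for Dnmt3a. Of 7 markers of cells leaving the naive state, 6 were higher at 24 h, Dnmt3a and Dnmt3b among them. Of 9 pluripotency markers, 2 were higher and 4 lower, with Nanog at -1.64 ± 0.15 (adjusted p = 0.00068, limma). The part of these 2 lists was not tested.

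The maintenance pair did not pass. Uhrf1 had 392 and 381 CPM in the clones, 388.5 CPM in F121 and 369 CPM in V6.5 at 24 h, against 377 and 381 CPM in the clones, 322 CPM in F121 and 332.5 CPM in V6.5 at 0 h, a difference of 0.12 ± 0.06 (adjusted p = 0.181). Dnmt1 differed by 0.10 ± 0.07 (adjusted p = 0.329, limma). Uhrf2 had 59.4 and 52.7 CPM in the clones, 78.6 CPM in F121 and 72.6 CPM in V6.5 at 24 h, against 89.1 and 82.2 CPM in the clones, 79.1 CPM in F121 and 62.9 CPM in V6.5 at 0 h. It was lower in both clones at 24 h, nearly level in F121 and higher in V6.5, and its difference over the 4 lines was -0.26 ± 0.15 (adjusted p = 0.218, limma). Fibroblast and feeder markers summed to 162 and 279 CPM in the clones, 353 CPM in F121 and 304 CPM in V6.5 at 24 h, against 141 to 302 CPM in the clones, 1006 CPM in F121 and 1064 CPM in V6.5 at 0 h, with 8 of 13 genes called lower. Primitive endoderm markers summed to 26.9 and 40.3 CPM in the clones, 54.8 CPM in F121 and 19.7 CPM in V6.5 at 24 h, against 48.9 and 71.0 CPM in the clones, 102 CPM in F121 and 77.8 CPM in V6.5 at 0 h, with 1 of 5 genes called higher and 2 lower. Trophoblast markers summed to 123 and 168.5 CPM in the clones, 40.2 CPM in F121 and 14.1 CPM in V6.5 at 24 h, against 138 and 152 CPM in the clones, 76.2 CPM in F121 and 53.1 CPM in V6.5 at 0 h, with 1 of 5 genes called lower. All 3 sums were lower at 24 h in F121 and V6.5. Over the 4 lines the median log2 difference was -1.25 for fibroblast and feeder, -0.47 for primitive endoderm and 0.06 for trophoblast markers. The part of these lists was not tested. In CM ESCs, expanded on male feeder cells, fibroblast and feeder markers summed to 782 to 893 CPM in XX and 740 to 846 CPM in XY lines. Ddx3y, a Y-linked gene, had 2.29 CPM in XX F121 at 24 h and 9.15 CPM at 0 h. In the XX clones, whose fibroblast and feeder sums overlapped between the times, it had 2.301 and 0.6871 CPM at 24 h. At 0 h it had 3.185 and 5.545 CPM in the clones. It had 4.24 and 7.77 CPM in XX lines CM1 and CM2. The presence of feeder cells in the 0 h libraries was not tested.

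**Figure D4:**
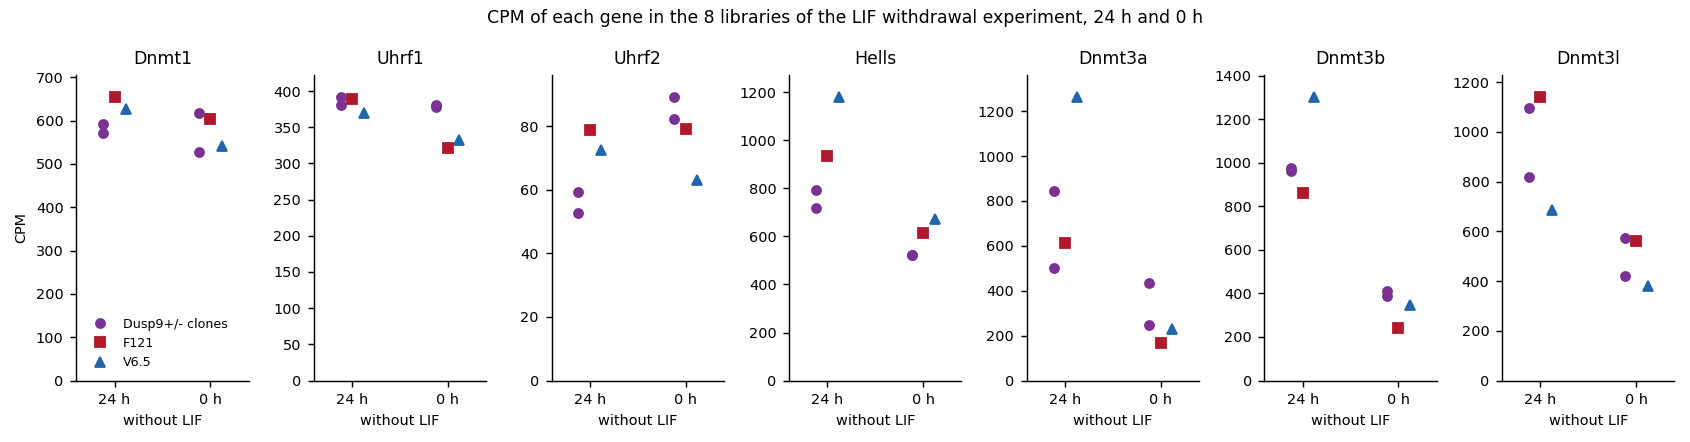
CPM (vertical axes, from 0) of each gene in the 8 withdrawal libraries, at 24 h (left of each panel) and 0 h (right); circles are the Dusp9+/- clones, squares F121 and triangles V6.5, with 1 point per library. Dnmt3a, Dnmt3b, Dnmt3l and Hells are higher at 24 h, and the Dnmt1 and Uhrf1 points overlap between the times.

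Pathway genes outside the 7 were also called, in a comparison that called 32.7% of all genes tested, 16.8% higher and 15.9% lower. The lists counted here are short, and none was tested against these shares. Prdm14 was lower at 24 h (-2.03 ± 0.27, adjusted p = 0.00196, limma). It was 1 of 2 decreases among 19 partners, of which 6 were higher, among them the H3K9 methyltransferase Ehmt2 (0.43 ± 0.09, adjusted p = 0.0101) and the heterochromatin proteins Cbx1 (0.62 ± 0.08, adjusted p = 0.00138) and Cbx5 (0.39 ± 0.05, adjusted p = 0.00229). Of 8 writers and erasers of the histone marks that Dnmt3 enzymes read, 3 were higher and none lower, with the H3K36 demethylase Kdm2b at 0.83 ± 0.09 (adjusted p = 0.000956) and Nsd1 at 0.63 ± 0.06 (adjusted p = 0.000628). Of 8 TET and base excision genes tested, 1 was higher and 2 lower, against 32.7% called over all genes, with Tet2 at -0.89 ± 0.13 (adjusted p = 0.00271) and Tet3 at 0.73 ± 0.14 (adjusted p = 0.00754). Of 20 S-phase genes, 5 were higher, led by Cdc6 (0.56 ± 0.09, adjusted p = 0.00390), but the list's median difference was 0.00, against 0.02 over all genes tested.

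The clones labelled Dusp9+/-, for an X-linked phosphatase of ERK, were compared with F121 at each time. Dusp9 itself had 62.1 and 172 CPM in the clones, against 122 CPM in F121, at 0 h, and 209 and 95.7 CPM in the clones, against 229 CPM in F121, at 24 h. It passed at neither time (adjusted p = 0.836 at 0 h and 0.546 at 24 h, limma), so its level does not check the genotype label.

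Dnmt3b was higher in the clones at 0 h and was the only member called, in a comparison that called 8.91% of all genes tested, 4.81% higher and 4.10% lower. At 387.5 and 411 CPM in the clones, against 242 CPM in F121, the difference was 0.72 ± 0.09 (adjusted p = 0.0199, limma). The test rests on 2 residual degrees of freedom and takes the lone F121 library to vary like the clones. Without either 0 h clone it sets 1 library against 1, with the spread from the 24 h clones alone, so such a fit is no check of the difference. Dnmt3a had 433 and 249.5 CPM in the clones, against 165.5 CPM in F121. Both clones lay above F121, far apart from each other, and the difference of 0.99 ± 0.40 did not pass (adjusted p = 0.155, limma). Uhrf1, at 377 and 381 CPM in the clones against 322 CPM in F121, differed by 0.24 ± 0.09 (adjusted p = 0.133) and Hells by -0.24 ± 0.10 (adjusted p = 0.165, limma). Of 7 markers of cells leaving the naive state, a list that holds Dnmt3a and Dnmt3b, 3 were higher and 0 lower in the same comparison. They were Fgf5 (2.32 ± 0.19, adjusted p = 0.0135), Pou3f1 (1.75 ± 0.30, adjusted p = 0.0294) and Dnmt3b itself. Of 9 pluripotency markers, 0 were higher and 3 lower, Nanog among them (-0.81 ± 0.12, adjusted p = 0.0245, limma). Fibroblast and feeder markers, at 141 and 302 CPM in the clones against 1006 CPM in F121, were called lower for 6 of 13 genes tested. Trophoblast markers, at 138 and 152 CPM in the clones against 76.2 CPM in F121, were called higher for 2 of 5 genes tested, and the part of either list was not tested.

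At 24 h no member passed by limma or voom, 2 had an unadjusted p under 0.05, and 2.55% of all genes tested were called, 1.57% higher and 0.984% lower. Dnmt3b was then 963 and 974.5 CPM in the clones, against 863 CPM in F121, a difference of 0.17 ± 0.09 (adjusted p = 0.297, limma). The nearest to passing was Uhrf2, with 59.4 and 52.7 CPM in the clones, against 78.6 CPM in F121 (-0.49 ± 0.13, adjusted p = 0.0943, limma). Trophoblast markers then summed to 123 and 168.5 CPM in the clones, against 40.2 CPM in F121, with 4 of 5 genes called higher, and their part was not tested. The change over 24 h in the clones minus that in F121 was added after these values were seen. It called 0 genes by limma (0.00%) and 0 by voom, with 1766 genes at an unadjusted p under 0.05, Dnmt3b (-0.55 ± 0.13, adjusted p = 0.234) and Uhrf2 (-0.60 ± 0.18, adjusted p = 0.306) among them.

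**Figure D5:**
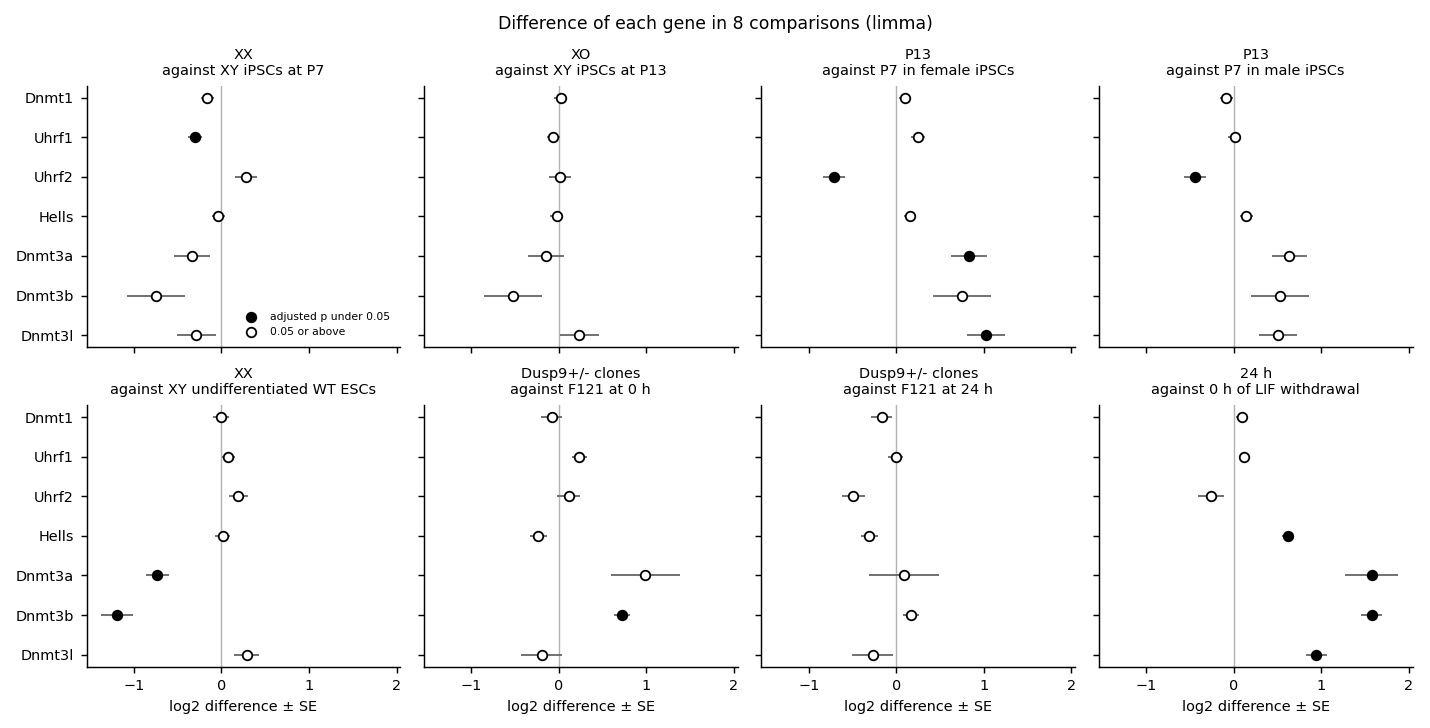
Difference of each gene (horizontal axis, log2, first-named group minus second, with SE bars) in 8 comparisons; filled points have an adjusted p under 0.05 and open points do not. Dnmt3b lies at -1.19 in XX against XY ESCs, at 0.72 in Dusp9+/- clones against F121 at 0 h and at 1.57 in 24 h against 0 h, while Dnmt1 is open in all 8.

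For each gene the most similar patterns were sought among 11420 genes, by the smaller of 2 Pearson correlations of log2 values, over the 12 iPSC and over the 12 ESC libraries. These are descriptions, since the libraries share lines and treatments. Dnmt3b was most like Spata13 (smaller r = 0.91), Thbs3 (0.89) and Vrtn (0.89), and Dnmt3a most like Cgnl1 (0.88), Trp53bp1 (0.86) and Slc7a7 (0.84). Dnmt3l was most like 2410141K09Rik (0.88), Icosl (0.87) and Plekhm1 (0.84), and Hells most like Fam208a (0.87), Lsg1 (0.86) and Fancl (0.85). Uhrf2 was most like Acsl3 (0.84), Slc4a7 (0.81) and Tmc7 (0.81). Uhrf1 reached 0.83 with Cs, 0.77 with Ptov1 and 0.77 with Pigs, and Dnmt1 no more than 0.75, with Chn1. None of the 7 genes was among the 3 nearest of another. Dnmt3b fell just short of the 3 nearest to Dnmt3a, with r = 0.837 over the iPSC and 0.924 over the ESC libraries. Dnmt3a was further from the 3 nearest to Dnmt3b, of which the third, Vrtn, had a smaller r of 0.89.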

How the data were processed

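Single-end RNA sequencing of stranded mRNA libraries, per the labels' protocols, gave 24 columns, 1 per line and passage or time; 20 ATAC samples were not analysed here. The deposited table holds log2 CPM per gene, made by the authors; GRCm38 (mm10), edgeR, featureCounts and STAR 2.5.3a appear, without roles, per the submitters' processing notes. How the 8 technical repeats in the labels entered the table is not given in the sources used here. From the steps between values, whole reads were recovered for 100% of values within 0.01 read, giving 8309171 to 14245900 reads a library. A gene at the floor of 0.183 CPM had 0 reads.

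The deposited log2 values entered limma 3.58.1 (R 4.3.3, trended variance, two-sided) for each gene averaging 1 CPM or more in the libraries fitted. Benjamini-Hochberg adjusted p-values span every gene of a fit, and 0.05 was the threshold. The 12 iPSC libraries shared a fit, as did the 8 withdrawal libraries; the ESC fit had the experiment as a covariate. Every p-value with few libraries comes from limma. Since the table is not counts, the count tests planned on recovered reads gave way to voom (limma) on those reads. Scripts were tested on simulated data. The same 6 lines were sampled at both passages, per the labels, and line deviations correlated between passages at -0.04 to 0.10. Replicates are lines or clones. Members and lists were chosen with earlier results of these data known. Beyond the 7, up to 4 called genes per list and comparison, by smallest adjusted p, could be named, and the 3 most alike by correlation among genes averaging at least 4 CPM. Python 3.11.15, pandas 2.3.3 and numpy 2.4.6 were used.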

Additional observations from a re-analysis of the deposited data

Results flagged for a closer look

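Dnmt1 values were higher at P13 than at P7 in each female iPSC line and lower in each male line. The changes on the log2 scale were 0.10, 0.15 and 0.05 in LV20, LV21 and LV22, and -0.05, -0.12 and -0.09 in LV4, LV8 and LV16. The difference between the sexes was 0.184 ± 0.10 (SE), with an unadjusted p = 0.0952 and an adjusted p = 0.614 by limma, which did not pass.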

How the results depend on the processing

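Of 1204 values of single genes under another setting or without a library, 1132 kept direction and side of the threshold, 22 lost a call, 12 gained one and 38 changed sign. For the number of the 7 genes called, 152 of 172 stayed within 1.5 times. XX against XY iPSCs at P7 gave 0 with the spread from the 6 libraries compared and 2 with LV21 (P7) and LV22 (P13) left out, and 0 to 2 over single libraries left out. Female passage gave 1 to 4 over those. Male passage gave 2 with the line as a replicate block, 3 without LV21 and LV22, and 0 to 3 over single libraries; ESCs gave 0 to 3. The cause was not tested.

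No value that changed sign was called. Without LV21 and LV22, Dnmt3l at P7 was 0.067, Uhrf2 at P13 -0.042 and Hells in the female minus male passage change -0.054. Under voom, Uhrf2 at P13 was -0.015, Uhrf1 in male passage -0.016, Dnmt1 in ESCs 0.0024 and Uhrf1 in clones at 24 h 0.033. With median-of-ratios size factors, Uhrf2 at P13 was -0.0071 and Hells in female minus male passage -0.00035. Over single libraries left out, Dnmt3l at P7 ran from -0.52 to 0.067. At P13, Dnmt1 ran from -0.022 to 0.044, Dnmt3a from -0.29 to 0.13, Uhrf2 from -0.042 to 0.11 and Hells from -0.070 to 0.0050. Uhrf1 in male passage ran from -0.034 to 0.043, and in female minus male passage Dnmt3b ran from -0.050 to 0.62 and Hells from -0.032 to 0.064. In ESCs Dnmt1 ran from -0.091 to 0.094 and Hells from -0.075 to 0.087, and Dnmt1 in the iPSC minus CM difference from -0.21 to 0.064. In clones at 0 h Dnmt1 ran from -0.20 to 0.031 and Dnmt3l from -0.42 to 0.026; at 24 h Dnmt3a ran from -0.29 to 0.46 and Uhrf1 from -0.029 to 0.011; in the change over time minus that in F121, Dnmt1 ran from -0.20 to 0.028 and Dnmt3l from -0.29 to 0.15.

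With the line as a replicate block, female Uhrf1 (adjusted p = 0.0440) and male Dnmt3a (0.0442) gained calls and no other call of the 7 genes changed. For 24 h against 0 h the block called 3607 genes, 4493 with clone numbers crossed, and 4 of the 7 genes either way. Genes called at P7 numbered 668, against 440 with no filter on low values, 428 with the 6-library spread and 1818 without LV21 and LV22. Leaving out 1 library gave 44 (LV22), 59 (LV8), 123 (LV20), 209 (LV16), 285 (LV4) and 1727 (LV21). Female passage called 1258 genes, against 174 (LV20), 393 (LV22) and 2079 (LV21) with a P7 library left out, and 304 (LV20) and 702 (LV22) with a P13 library left out. Male passage called 1823, against 505 without LV8 and 1018 without LV16 at P7, and 752 without LV8 and 429 without LV4 at P13. Female minus male passage called 0, against 11 with the line as a block, 145 without LV21 at P7 and 364 without LV21 (P7) and LV22 (P13). ESCs gave 1020, against 1690 for CM lines alone, 265 without CM1, 208 without CM2, 557 without CM3, 1573 without F121 and 1682 without V6.5. The iPSC minus CM difference gave 3, and 0 to 69 over single libraries left out. For the clones the count was 1277 at 0 h, against 200 with no filter, 587 and 644 without a 24 h clone and 1953 without clone 2 at 0 h. At 24 h it was 366, against 0 with no filter, 13 under voom, 104 without clone 1 and 1 without clone 2 at 24 h, and 1577 and 1592 without a 0 h clone. For 24 h against 0 h it was 4688, against 3086 without clone 2 at 24 h. Planned edgeR and DESeq2 fits were not run. Each of the 7 genes had at least 591 reads in a library.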
